A study of Peromyscus maniculatus with 16 samples.

Results

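Genes of blood coagulation, fibrinolysis and complement were examined in RNA sequenced from the livers of 16 deer mice (Peromyscus maniculatus), outbred rodents kept in captive stocks. A list of 49 mouse gene symbols, set up by function, was matched to the 16910 lines of the count table. Of these 49 genes, 39 had a line and 38 passed a filter on low counts, at which 12639 genes in all were tested. Kng1, Proc, Hrg, C1ra, C1s1, C4b, C4bp, Mbl2, C3 and Cfb were not analysed here, and Cfd, the protease factor D, lay between 0 and 0.364 CPM (counts scaled to a common library size) in every animal and was not tested. Group C held 6 males on regular diet. Group NS held 5 males whose livers stayed free of steatosis on HFD, a sucrose-containing diet with 58 kcal% from fat, and group S held 5 animals on the same HFD whose livers had steatosis. Diets ran for 28 weeks and all animals were 10 months old at the end. The stock label is BW (P. m. bairdii, a closed colony) for 13 animals and SM2 (P. m. sonoriensis) for 3, and each group held 1 SM2 male, which was animal 10876 among C, 10865 among NS and 10880 among S. The only 3 females, animals 35982, 35955 and 35990, were BW animals of group S, so that the S males were 36016 and 10880. Steatosis is a label given to animals on the HFD by histology, not a treatment that was assigned.

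Hepatocytes make and secrete most plasma clotting factors, the 3 chains of fibrinogen, the serpins that hold clotting in check and most soluble complement components. Clotting zymogens activate one another in a cascade that ends with thrombin, which turns fibrinogen into fibrin, and plasmin later dissolves the fibrin. Complement is triggered by the classical, lectin or alternative pathway, and all 3 converge on C3 and on a terminal pathway in which C5 to C9 build a pore in the target membrane. Fibrinogen and several complement genes are acute phase genes, which means that cytokines from inflamed tissue raise their expression in the liver.

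Total counts per animal lay between 4640733 and 11349971. The 39 genes took 3.76% to 6.63% of them, and the fibrinogen chains alone took 1.60% to 3.16%. Levels are CPM normalized by TMM, a scaling that sets the bulk of genes equal between animals. The sum of 7 hepatocyte markers lay between 34240 and 62650 CPM in all animals. In bulk liver RNA, fewer hepatocytes and less RNA per hepatocyte cannot be told apart. Of the 7 hepatocyte markers Ttr and Ass1 fell and Apoa1 rose in S vs C at an adjusted p under 0.1 (log2 fold changes -0.66, -0.89 and 0.96), and none of the 3 passed without the animal described next. S animal 36016 stood apart from all others. It had the lowest total, the lowest share of counts in these genes, and a median log2 difference from the mean of C of -0.84 over the 38 genes, where the other S animals lay between -0.33 and -0.05, the NS animals between -0.22 and 0.14 and the C animals between -0.10 and 0.14. Of the 38 genes, 34 lay below the mean of C in this animal. Its level of Col1a1, a collagen chain made by stellate cells and fibroblasts, came to 2057 CPM against 3.26 to 17.0 CPM elsewhere, and all 8 stellate cell and fibroblast markers summed to 2367 CPM against 198 to 523 CPM elsewhere. The part of these differences in the results was not tested, and the main results of group S are therefore also given without this animal.

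**Figure D1:**
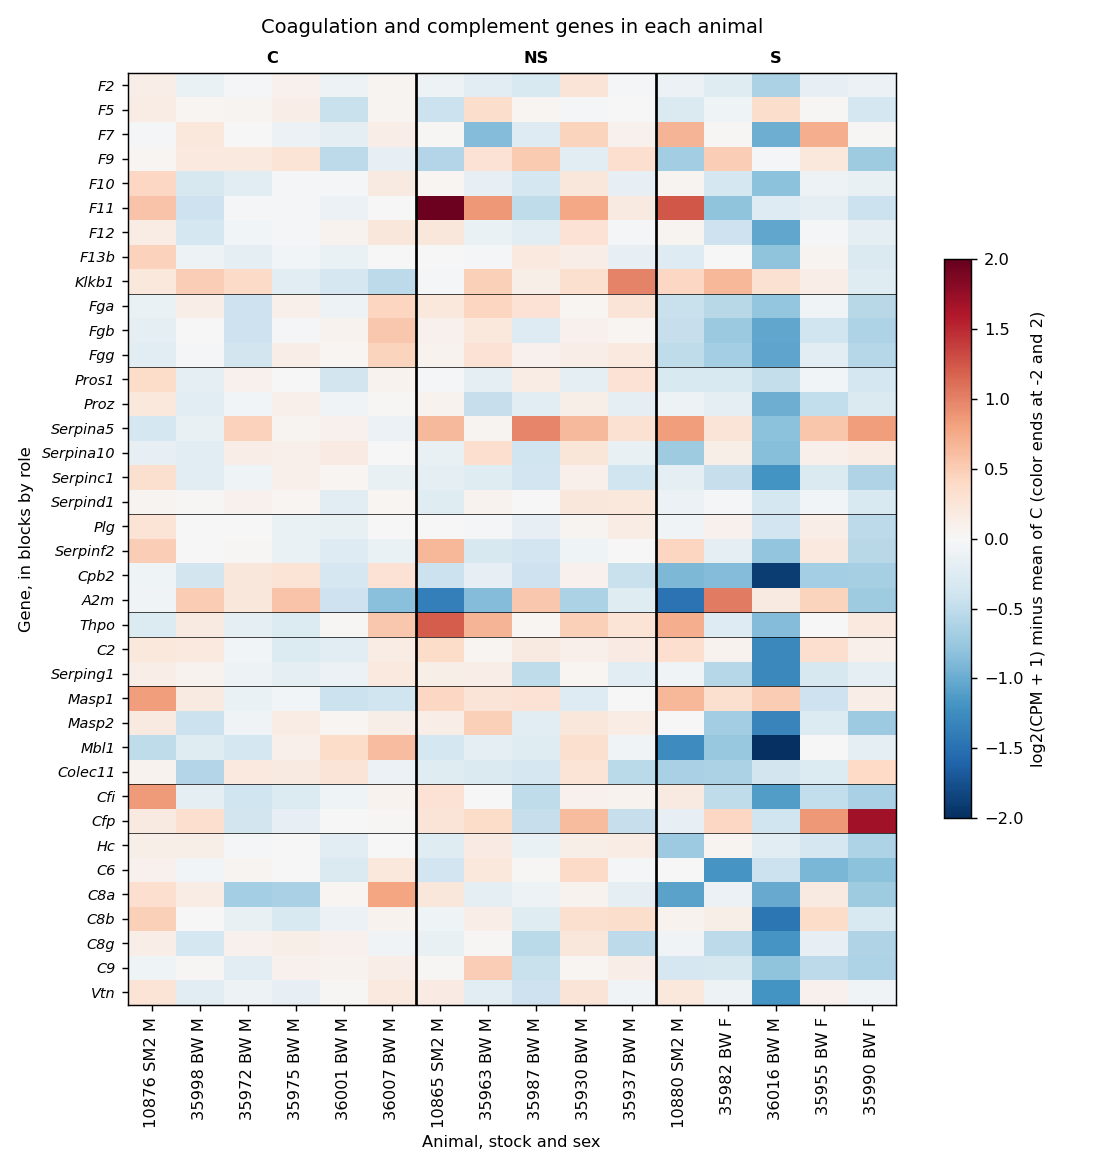
Each cell is log2(CPM + 1) of 1 tested gene in 1 animal minus the mean of the 6 C animals, with genes in blocks by role and animals in groups C, NS and S. The column of S animal 36016 is blue in most rows. The fibrinogen and Cpb2 rows lie below the mean of C in all 5 S animals, but Fga in animal 35955 is close to that mean.

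Steatosis on the HFD was first set against regular diet. The genes were tested with edgeR's quasi-likelihood test over all 12639 genes, with Benjamini-Hochberg adjusted p-values. A gene passed at an adjusted p under 0.1 and was called where its fold change was also at least 2. In S vs C, 0 of the 38 genes were called, against 4.06% of all tested genes in either direction. Without the fold limit 7 genes fell, against 5.36% of all genes, and 0 rose, against 5.39% of all genes. The 7 genes were the fibrinogen chains Fga, Fgb and Fgg, the fibrinolysis inhibitor Cpb2, the thrombin inhibitor Serpinc1, and the terminal complement genes C6 and C9. At an unadjusted p under 0.05 the counts were 15 lower, against 10.7% of all genes, and 1 higher, against 13.1% of all genes. DESeq2 also called 0 genes, and 9 were lower at its adjusted p, where 8.4% of its 11040 genes were. The log2 fold change was below 0 for 29 of the 38 genes, with a median of -0.26 where all tested genes had 0.10. Without S animal 36016 the count that fell was 2 (Cpb2 and Fgb), against 2.54% of all genes, the number below 0 was 27, and the median was -0.16 against 0.07.

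Fibrinogen is the soluble precursor of fibrin and is assembled from alpha, beta and gamma chains, encoded by Fga, Fgb and Fgg. Fgb lay at 6913, 5696, 4620, 7237 and 6168 CPM in S animals 10880, 35982, 36016, 35955 and 35990. In NS it lay at 10110, 11020, 7987, 10070 and 9761 CPM, and in C it ran from 7127 to 13800 CPM with a median of 9485. All S animals lay below all NS animals, and 1 of them, 35955, was above the lowest C animal. Fgb was 1.58-fold lower in S than in C (log2 fold change -0.66, SE 0.17, adjusted p = 0.0456). Fgg lay at 4810, 4257, 3299, 5892 and 4628 CPM in the same S animals, at 7206, 8391, 7282, 7519 and 7844 CPM in NS, and at 5305 to 9294 CPM in C with a median of 6866. Only S animal 35955 reached the range of C, and none reached that of NS. Fgg was 1.52-fold lower in S than in C (log2 fold change -0.61, SE 0.17, adjusted p = 0.0523). Fga lay at 7598, 7004, 6049, 9845 and 7057 CPM in S, at 11950, 13860, 12590, 10580 and 12330 CPM in NS, and at 7721 to 13850 CPM in C with a median of 10400. Here too only S animal 35955 overlapped with C. Fga was 1.40-fold lower in S than in C (log2 fold change -0.48, SE 0.17, adjusted p = 0.0954). Without S animal 36016 the log2 fold changes of Fgb, Fgg and Fga were -0.58, -0.51 and -0.42, with adjusted p-values of 0.0927, 0.104 and 0.185.

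Among the genes of fibrinolysis, Cpb2 had the largest change of all 38 genes in S vs C. It encodes the carboxypeptidase TAFI, which trims fibrin so that plasminogen binds less well and clots last longer. Cpb2 lay at 477.2, 485.1, 237.6, 556.8 and 563.1 CPM in S animals 10880, 35982, 36016, 35955 and 35990, and at 658.9, 797.2, 665.4, 949.1 and 652.9 CPM in NS. In C it ran from 688.0 to 1084 CPM with a median of 939.8. Every S animal lay below every C and every NS animal. Cpb2 was 1.95-fold lower in S than in C (log2 fold change -0.97, SE 0.21, adjusted p = 0.0262), and the log2 fold change was -0.80 with an adjusted p of 0.0344 without S animal 36016. Plg, which encodes plasminogen, the precursor of plasmin, ran from 2478 to 3893 CPM in S, from 3182 to 3920 in NS and from 3213 to 4301 in C (log2 fold change in S vs C -0.13, SE 0.14). Its ranges overlapped in all groups. Serpinf2, the inhibitor of plasmin, and A2m, a broad protease inhibitor, had log2 fold changes of -0.13 and 0.07 and did not pass either. Those of Plg and Serpinf2 were -0.08 and -0.0036 without S animal 36016.

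**Figure D2:**
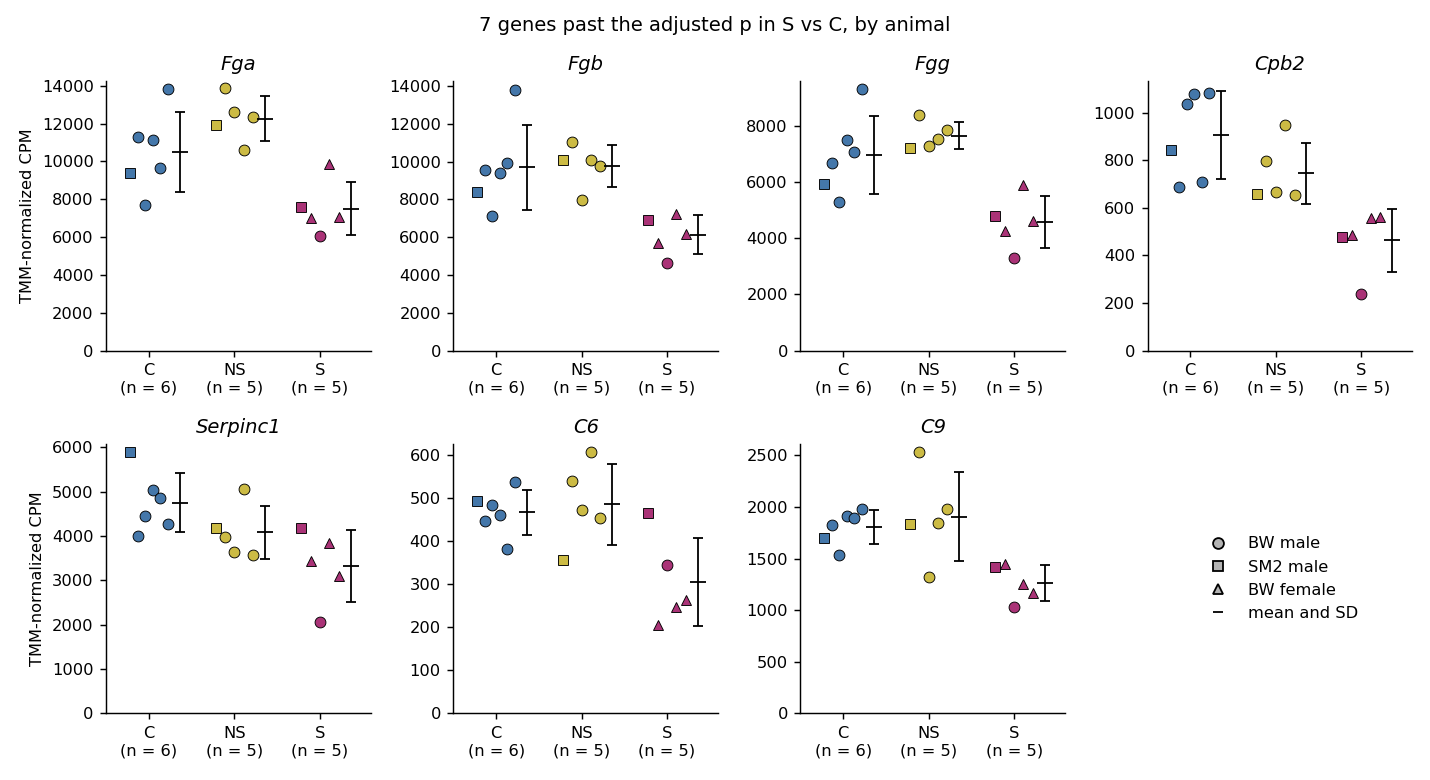
TMM-normalized CPM of the 7 genes that passed the adjusted p in S vs C, 1 point per animal (circle BW male, square SM2 male, triangle BW female), with the mean and SD of each group beside its points; each axis starts at 0. For Cpb2 and C9 no S animal reaches the range of C, and for C6 the 3 S females form the lowest points.

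Of 6 anticoagulant genes tested, 1 fell in S. Serpinc1 encodes antithrombin, the main inhibitor of thrombin and factor Xa. It lay at 4169, 3433, 2054, 3836 and 3106 CPM in S animals 10880, 35982, 36016, 35955 and 35990, at 3578 to 5057 CPM in NS, and at 4006 to 5886 CPM in C with a median of 4649. SM2 animal 10880 was the only S animal within the range of C, and the SM2 animal of C, at 5886 CPM, was the highest of all. Serpinc1 was 1.43-fold lower in S than in C (log2 fold change -0.52, SE 0.18, adjusted p = 0.0923), and did not pass without S animal 36016 (log2 fold change -0.39, adjusted p = 0.172). Pros1 (protein S), Proz (protein Z), Serpina10 (its partner inhibitor) and Serpind1 (heparin cofactor II) had log2 fold changes between -0.38 and -0.17. Serpina5, which inhibits activated protein C and is low in these livers at 2.25 to 10.4 CPM, had a log2 fold change of 0.51.

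None of the 9 genes for clotting zymogens and cofactors passed in S vs C, and their median log2 fold change was -0.09. F2 encodes prothrombin, the precursor of thrombin. It lay at 2771, 2548, 1945, 2676 and 2761 CPM in S animals 10880, 35982, 36016, 35955 and 35990, at 2430 to 3606 CPM in NS, and at 2738 to 3314 CPM in C (log2 fold change -0.25, SE 0.14, adjusted p = 0.277, and -0.17 without S animal 36016). The groups overlapped, and animal 36016 was the lowest of all 16. F5, F7, F9, F10, F11, F12, F13b and Klkb1, which encodes prekallikrein of the contact system, had log2 fold changes between -0.29 and 0.24. Thpo, the hormone that drives platelet production, had a log2 fold change of 0.04.

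The terminal complement pathway held 2 of the 7 genes that fell. All 7 genes listed for it here had a log2 fold change below 0 in S vs C, with a median of -0.46. They include the regulator Vtn, while C7 is counted with the further complement components below. With S animal 36016 left out, 5 of the 7 lay below 0 and the median was -0.38. C9 encodes the subunit that polymerizes into the pore. It lay at 1423, 1446, 1028, 1257 and 1171 CPM in S animals 10880, 35982, 36016, 35955 and 35990, at 1325 to 2537 CPM in NS, and at 1530 to 1980 CPM in C with a median of 1856. Every S animal lay below every C animal, while NS animal 35987, at 1325 CPM, lay among the S animals. C9 was 1.43-fold lower in S than in C (log2 fold change -0.51, SE 0.16, adjusted p = 0.0680), and did not pass without S animal 36016 (log2 fold change -0.45, adjusted p = 0.141). Among the 38 genes, Cpb2 and C9 were the 2 in which all S animals lay below all C animals, against 2.33% of all tested genes. They were again Cpb2 and C9 without S animal 36016, against 3.12% of all genes. C6, an early part of the pore, lay at 466.2, 205.3, 344.8, 246.8 and 263.3 CPM in the same S animals, at 357.1 to 606.3 CPM in NS and at 382.4 to 537.2 CPM in C. Its log2 fold change in S vs C was -0.61 (SE 0.19, adjusted p = 0.0763), and -0.66 with an adjusted p of 0.104 without S animal 36016. The S females held the 3 lowest values, and with males alone the log2 fold change of C6 was -0.20 (adjusted p = 0.614). Hc, which encodes C5, the first protein of the pathway, ran from 909.5 to 1554 CPM in S, from 1261 to 1685 in NS and from 1291 to 1624 in C (log2 fold change -0.35, SE 0.15, adjusted p = 0.169, and -0.38 without S animal 36016). The 3 genes of C8 had log2 fold changes of -0.55 for C8a, -0.14 for C8b and -0.46 for C8g, and that of Vtn (vitronectin, which keeps the pore out of bystander membranes) was -0.15. Without S animal 36016 they were -0.44, 0.06, -0.33 and 0.02, so that C8b and Vtn changed sign.

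The genes that start complement did not pass in S vs C in the fit used here. In the lectin pathway, Mbl1 (mannose-binding lectin A, which recognizes sugars on microbes) and Masp2 (the protease that cleaves C4 and C2) had log2 fold changes of -0.74 and -0.55 with adjusted p-values of 0.158 and 0.114, and of -0.53 and -0.41 without S animal 36016, while Colec11 and Masp1 had -0.28 and 0.22. DESeq2 put Masp2 (adjusted p = 0.0596) and Mbl1 (adjusted p = 0.0960) past its threshold. In the classical pathway C2 had 0.00 and Serping1, the C1 inhibitor, had -0.43. Of the alternative pathway genes tested, Cfi, the protease that degrades C3b, had a log2 fold change of -0.52 and Cfp (properdin, which stabilizes the alternative convertase and is made largely by leukocytes) had 0.70 with an adjusted p of 0.200, or 0.88 without S animal 36016. With stock as a covariate Cfi, Masp2 and Proz passed as well (adjusted p = 0.0535, 0.0688 and 0.0897), which gave 10 lower genes, against 7.78% of all genes. Cfp lay at 61.98 CPM in S animal 35990, at 13.89 to 34.88 CPM in the other S animals, at 13.2 to 29.3 CPM in NS and at 14.2 to 23.9 CPM in C. The same animal 35990 had the highest sum of 7 macrophage markers (660.5 CPM against 167.4 to 396.4 in C), and the part of this in the Cfp value was not tested.

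**Figure D3:**
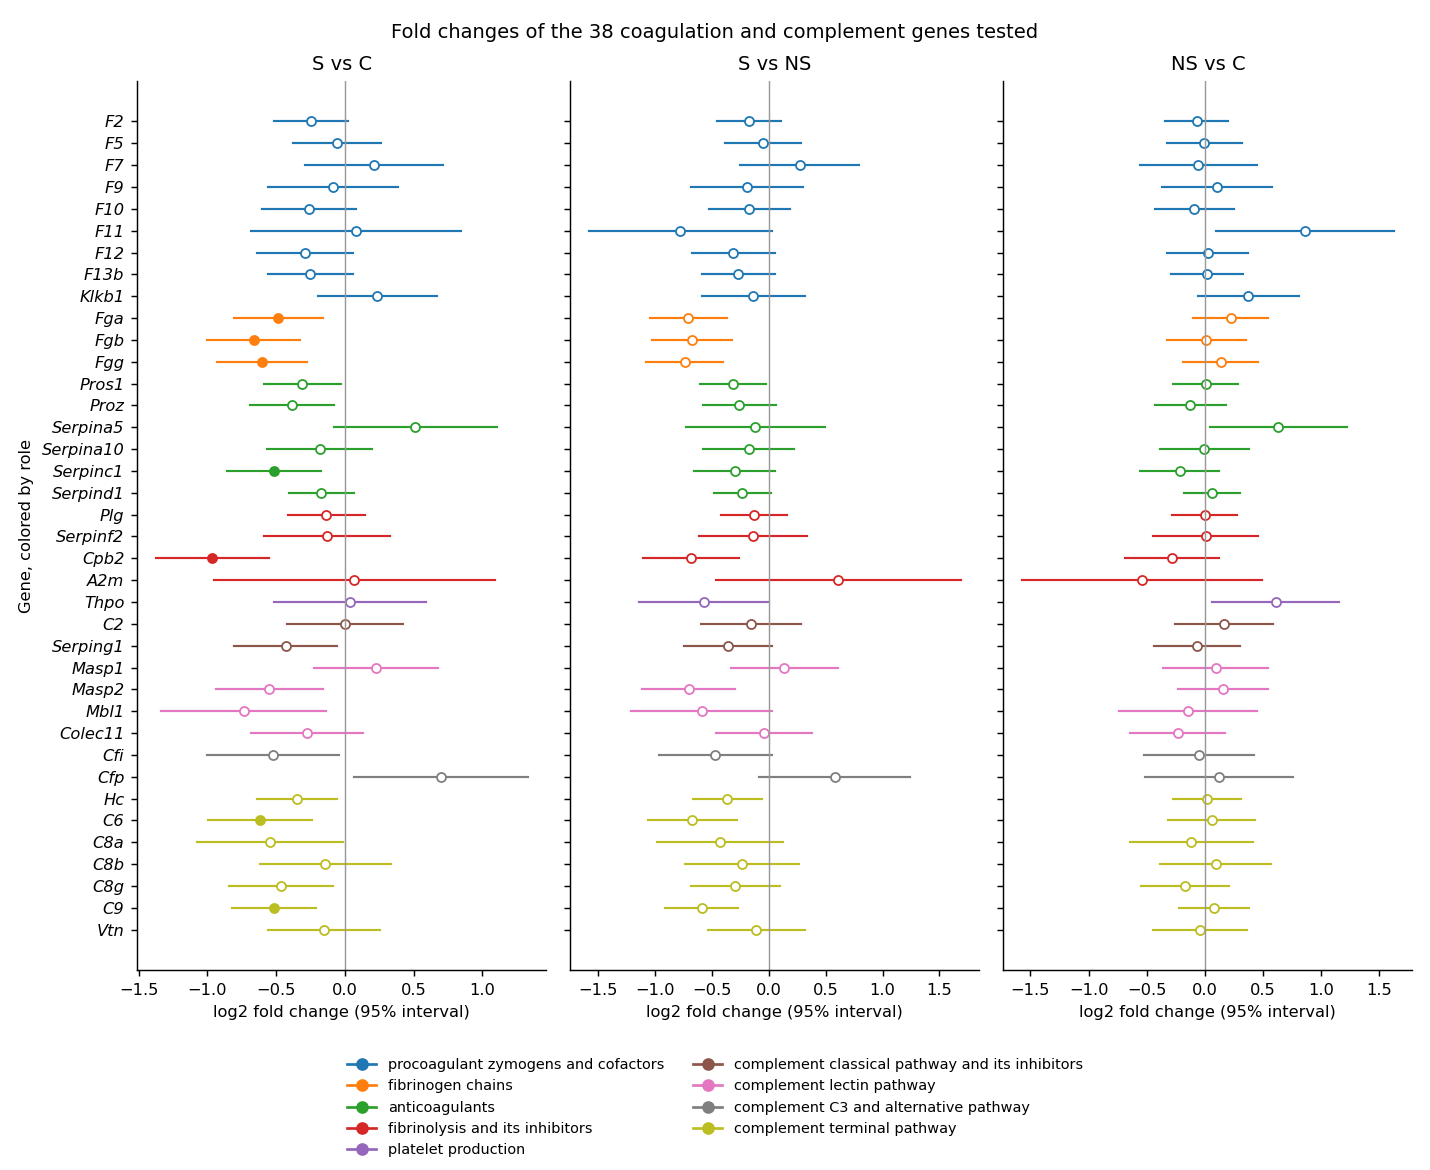
Log2 fold change and approximate 95% interval of the 38 genes in S vs C, S vs NS and NS vs C, colored by role. Filled points passed an adjusted p of 0.1. The 7 filled points are all in S vs C and below 0; the fibrinogen, Cpb2, C6 and C9 points lie below 0 in both S comparisons.

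Leaving out 1 animal at a time moved the count of 7 lower genes in S vs C to between 1 and 9. It was 1 without C animal 36007, 2 without C animal 35975 or S animal 36016, 3 without S animal 35990, 4 without C animals 10876 or 36001 or S animal 35982, and 9 without S animal 10880. The share of all genes that were lower moved too, to 2.02% without C animal 36007, 1.97% without 35975, 2.54% without 36016 and 5.44% without 10880, and it ran from 1.97% to 6.37% over the 16 fits. Cpb2 passed in all 16 of these fits, with log2 fold changes between -1.04 and -0.80, and it reached the fold limit of 2 and was called without C animal 35998 or 36001 or S animal 35955 or 35990. Fgb passed in 15 and was lost without C animal 36007, where its adjusted p was 0.102. Fgg passed in 12, C9 in 10, C6 in 8, Serpinc1 in 5 and Fga in 4, and the highest adjusted p-values were 0.115, 0.141, 0.150, 0.172 and 0.200. The sign of all 7 was the same in all 24 alternatives. In the 13 males, where group S is the 2 animals 36016 and 10880, 5 genes were lower at the adjusted p, and 3 of them were called, namely Cpb2 (log2 fold change -1.34), Mbl1 (-1.68) and C8a (-1.13). Over all genes 2.59% were lower there and 679 of 12492 were called in either direction. Of the 7 genes that fell in the whole set, Cpb2 and Fgg passed in males, while Fgb (adjusted p = 0.112), Fga (0.137), C9 (0.184), Serpinc1 (0.191) and C6 (0.614) did not.

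Acute phase markers were examined beside these genes. Of 8 listed, 4 had a line, and all 4 had a log2 fold change below 0 in S vs C. Hp, which encodes haptoglobin, was called (log2 fold change -1.36, adjusted p = 0.0241), and so was Lbp, the lipopolysaccharide binding protein (-1.42, adjusted p = 0.0610). Hp was still called without S animal 36016 (-1.25, adjusted p = 0.0594), and Lbp did not pass (-1.24, adjusted p = 0.128). Lcn2 and Itih4 did not pass, and Itih4 was near 0 (-0.17, or -0.07 without S animal 36016). Crp (C-reactive protein) and Apcs (serum amyloid P) were listed with the further complement components and are not among these 4. Crp was not lower in S, at 143.4 to 413.1 CPM against 269.2 to 540.7 in NS and 162.2 to 258.6 in C. Apcs lay at 1263 to 3662 CPM in S, 1872 to 6492 in NS and 1971 to 5759 in C. The sum of the 4 markers, most of it Hp, lay between 6967 and 13220 CPM in S, between 10270 and 26810 CPM in NS and between 15350 and 30230 CPM in C, so that no S animal reached the range of C. The sum of 5 neutrophil markers lay between 4.80 and 24.6 CPM in S, between 10.07 and 56.26 CPM in NS, and between 26.9 and 76.3 CPM in C. Of the 4 neutrophil markers tested in S vs C, 2 were called lower (S100a8 and S100a9), and 2 had a log2 fold change above 0. The part of the acute phase or the neutrophil markers in the fibrinogen and complement values was not tested.

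The second question was whether these genes differ between steatotic and non-steatotic livers on the same diet. In S vs NS 0 of the 38 genes were called, against 0.00791% of all tested genes, and 0 passed without the fold limit. DESeq2 called 0 as well. At an unadjusted p under 0.05 the counts were 9 lower, against 4.74% of all genes, and 0 higher. The log2 fold change was below 0 for 34 of the 38 genes, with a median of -0.26 where all genes had 0.04, and for 31 genes, with a median of -0.16, without S animal 36016. The fibrinogen chains had the smallest p-values, with log2 fold changes of -0.74 for Fgg (SE 0.17), -0.71 for Fga (SE 0.17) and -0.68 for Fgb (SE 0.18) at an adjusted p of 0.289 each. C9 had -0.59 (SE 0.16) at the same adjusted p. These 4 values without S animal 36016 were -0.64, -0.63, -0.58 and -0.52, with adjusted p-values from 0.406 to 0.556. DESeq2 put the same 4 genes past its adjusted p, where 0.477% of its genes were lower, at 0.00803 for Fgg, 0.0135 for Fga, 0.0424 for Fgb and 0.0573 for C9. In 4 genes, Fga, Fgb, Fgg and Cpb2, all 5 S animals lay below all 5 NS animals, against 0.752% of all tested genes. The same 4 genes had this order without S animal 36016, against 1.07% of all genes. Masp2, C6, Cpb2, Hc and Pros1 were the others with an unadjusted p under 0.05, with log2 fold changes of -0.71, -0.67, -0.68, -0.36 and -0.32; Masp2 and Pros1 are named here after their values were seen. With BW animals alone 1 gene, C6, passed (-0.95, adjusted p = 0.0786). All S animals in that fit except 36016 are females and all NS animals are males, so sex and steatosis are mixed there. With males alone C6 had a log2 fold change of -0.26 and did not pass, and 1 gene, Mbl1, was called (-1.54, adjusted p = 0.0603). S vs C and S vs NS share the S animals, so they are not independent of each other.

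HFD without steatosis was then set against regular diet. In NS vs C 0 of the 38 genes were called, against 0.0712% of all genes, and DESeq2 also called 0. At an unadjusted p under 0.05 the counts were 2 higher, against 5.32% of all genes, and 0 lower. The median log2 fold change was 0.01, as for all genes (0.01), and 17 genes lay below 0 and 21 above. Thpo lay at 25.46, 17.34, 10.76, 14.91 and 12.75 CPM in NS animals 10865, 35963, 35987, 35930 and 35937 and at 8.46 to 15.5 CPM in C (log2 fold change 0.61, SE 0.28, adjusted p = 0.594). F11, the zymogen of factor XI, lay at 908.2, 428.5, 164.1, 400.9 and 264.0 CPM in the same NS animals and at 174.6 to 348.3 CPM in C (log2 fold change 0.86, SE 0.39, adjusted p = 0.594). For both genes the highest NS value was that of the SM2 animal, and the groups overlapped. Without that animal the log2 fold changes were 0.40 for F11 and 0.39 for Thpo. Serpina5 (0.63, SE 0.30) and Klkb1 (0.37, SE 0.22) had the next smallest p-values.

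Over both HFD groups together, HFD vs C, 0 genes were called, against 0.894% of all genes, and 1 passed without the fold limit, against 1.5% of all genes that were lower. DESeq2 also called 0. The gene that passed was Cpb2, with a log2 fold change of -0.62 (SE 0.17, adjusted p = 0.0918). It did not pass in 10 of the 16 fits that left out 1 animal, with the highest adjusted p, 0.218, without C animal 36007. At an unadjusted p under 0.05 the counts were 3 lower (Cpb2, Serpinc1 and Fgb), against 8.72% of all genes, and 1 higher (Serpina5), against 9.18% of all genes. Serpinc1 had a log2 fold change of -0.37, Fgb of -0.33 and Serpina5 of 0.57. Without S animal 36016 these were -0.31, -0.29 and 0.68, and Cpb2 passed at -0.55 (adjusted p = 0.0675). The C animals are shared by S vs C, NS vs C and HFD vs C.

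The 2 stocks were compared in a model of group and stock, since each group held 1 SM2 animal. In SM2 vs BW 1 of the 38 genes was called, against 10.8% of all tested genes, and 4 were higher without the fold limit, against 11.9% of all genes. The 4 genes were F11, Cfi, Serpinf2 and Masp1, and 0 were lower. In the SM2 animals 10876, 10865 and 10880 the level of F11 was 348.3, 908.2 and 556.3 CPM, where the BW animals of the same groups lay at 174.6 to 233.7, 164.1 to 428.5 and 133.6 to 204.0 CPM. F11 was 2.50-fold higher in SM2 (log2 fold change 1.32, SE 0.22, adjusted p = 0.00063). Cfi lay at 2240, 1522 and 1407 CPM in the SM2 animals and between 568.9 and 1321 CPM in the BW animals (log2 fold change 0.76, SE 0.16, adjusted p = 0.00463). Serpinf2 lay at 1240, 1387 and 1187 CPM in the SM2 animals and between 509.4 and 1003 CPM in the BW animals (0.72, SE 0.16, adjusted p = 0.00576). For these 3 genes no BW animal of any group reached the lowest SM2 animal except in F11, where NS animals 35963 and 35930 did. Masp1, a protease of the lectin pathway, lay at 225.0, 168.4 and 201.0 CPM in the SM2 animals and between 93.27 and 180.2 CPM in the BW animals (0.63, SE 0.18, adjusted p = 0.0252). It was lost without C animal 10876 (0.41, adjusted p = 0.220), while the other 3 genes passed in all 16 fits. In all 4 genes, and in none of the other 34, the SM2 animal was the highest of its group in all 3 groups, against 7.41% of all tested genes. Other genes passed with 1 animal left out. They were Mbl1 without S animal 36016 (-0.62, adjusted p = 0.0630), F9 and Thpo without C animal 10876 (-0.80 and 0.91, adjusted p = 0.0724 and 0.0316), and F10 without NS animal 35930 (0.39, adjusted p = 0.0956). In males alone C2 and F10 passed (0.57 and 0.46, adjusted p = 0.0893 and 0.0986). A2m, at 4.23, 1.13 and 0.974 CPM in the SM2 animals and 2.04 to 10.4 CPM in the BW animals, was called lower by DESeq2 (-1.25, adjusted p = 0.0737) and did not pass in edgeR (-1.24, adjusted p = 0.137). In edgeR it was called without C animal 10876 (-2.17, adjusted p = 0.0465) or C animal 36007 (-1.36, adjusted p = 0.0882). The fibrinogen chains had log2 fold changes between -0.09 and 0.02 between the stocks.

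**Figure D4:**
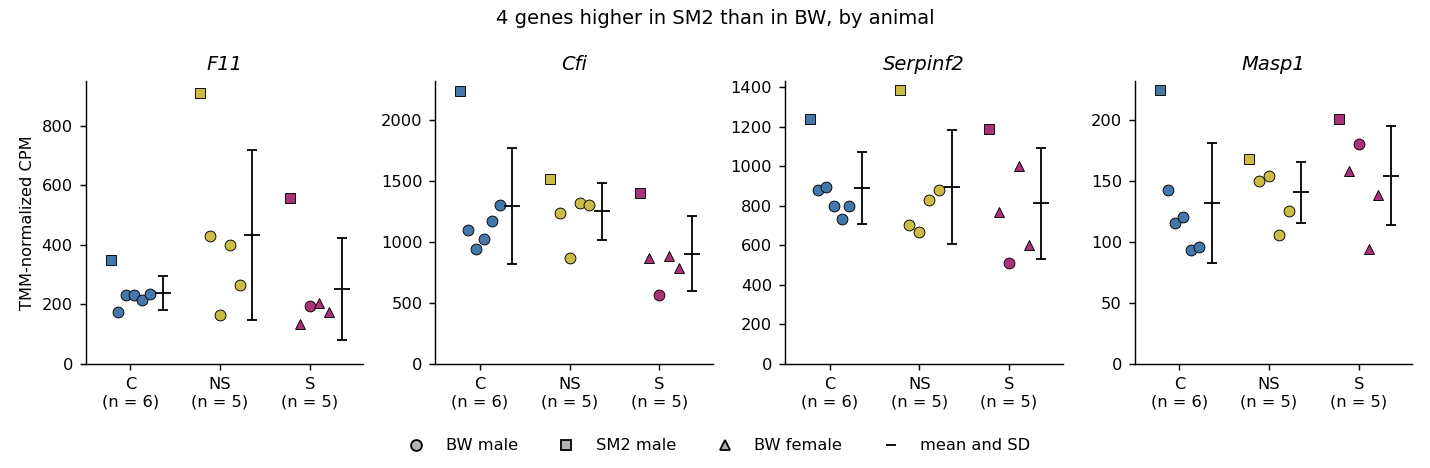
TMM-normalized CPM of F11, Cfi, Serpinf2 and Masp1 by group, 1 point per animal (circle BW male, square SM2 male, triangle BW female), with the mean and SD of each group beside its points; each axis starts at 0. The square is the highest point of every group in all 4 panels.

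A different response to the HFD in the 2 stocks was tested as an interaction of diet and stock. It passed for 0 of the 38 genes, against 0.0712% of all genes, in edgeR and in DESeq2. At an unadjusted p under 0.05 the count was 1, against 7.80% of all genes. This was Thpo (interaction 1.3 on the log2 scale, SE 0.58, adjusted p = 0.614), which lay at 25.46 and 17.91 CPM in the SM2 animals on HFD and at 8.463 CPM in the one on regular diet. SM2 had 1 animal on regular diet, so this test rests on 3 SM2 animals.

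Sex could be compared only in group S. Among S females vs S males 0 of the 38 genes were called, against 0.388% of all genes. DESeq2 called 2 (Mbl1 and Cfp), where it called 206 of its 11701 genes in either direction. At an unadjusted p under 0.05 the counts were 4 higher in females, against 4.38% of all genes, and 2 lower, against 6.85% of all genes. Serpina10 lay at 316.9, 313.9 and 323.5 CPM in the females and at 162.7 and 179.2 CPM in the S males, but the males of C and NS lay between 222.9 and 368.9 CPM (log2 fold change 0.90, SE 0.22, adjusted p = 0.135). Mbl1 lay at 240.0, 408.6 and 357.9 CPM in the females and at 93.28 and 169.8 CPM in the S males, and between 287.0 and 628.0 CPM in the other males (1.35, SE 0.36, adjusted p = 0.170). In both genes the S males lay below all males of C and NS, and for Mbl1 so did S female 35982. The share of all genes with this order was not counted. One of these S males is animal 36016, which lay below the mean of C in 34 of the 38 genes. C6 had a different pattern. It lay at 205.3, 246.8 and 263.3 CPM in the females and at 344.8 to 606.3 CPM in all 13 males, and it was the only one of the 38 genes in which the females lay below every male, against 0.356% of all tested genes, or 0.918% without animal 36016. Its log2 fold change between S females and S males was -0.77 (SE 0.22, adjusted p = 0.204), and without animal 36016, with 1 S male left, it was -0.97 (adjusted p = 0.230). In that fit Serpina10, Mbl1 and Cfp had 0.83, 0.98 and 1.3 and did not pass. With BW animals alone, where animal 36016 is the only S male, 6 genes were called higher in females (C2, C8b, Cpb2, Mbl1, Serpina5 and Vtn), where 650 of all 12333 genes were called in either direction, so those calls compare the females with that animal. All females had steatosis, and 1 of the 2 S males is SM2, so sex, stock and animal 36016 cannot be told apart here.

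The chains of 1 protein were compared with each other across the 16 animals, on log2 CPM centred by group, with permutation tests of 6 pairs (two-sided, 100000 resamples within groups). Fgb and Fgg had a Pearson r of 0.92 (Spearman's rho 0.81, permutation p = 3e-05, adjusted p = 0.00018), Fga and Fgg 0.91 (rho 0.77, permutation p = 0.00015, adjusted p = 0.00045) and Fga and Fgb 0.81 (rho 0.62, permutation p = 0.002, adjusted p = 0.004). Without the 2 animals farthest from the median, r was 0.89, 0.90 and 0.76, and within the 13 BW animals it was 0.93, 0.91 and 0.82. Fgg, Fga and Fgb follow one another in the RefSeq annotation with 0 other protein coding genes between them. C8 is likewise built from alpha, beta and gamma chains. C8a and C8b, also adjacent genes, had an r of 0.52 (rho 0.51, permutation p = 0.07, adjusted p = 0.084), and C8a and C8g, which is not their neighbour, had 0.12 (rho 0.00, permutation p = 0.7, adjusted p = 0.7). C8b and C8g had 0.67 (rho 0.50, permutation p = 0.028, adjusted p = 0.042), which fell to 0.29 without animals 36016 and 10876. It was 0.66 within the 13 BW animals, which hold 36016 but not 10876. F11 and Klkb1 are adjacent too, yet Klkb1 had a log2 fold change of -0.03 between the stocks where F11 had 1.32.

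**Figure D5:**
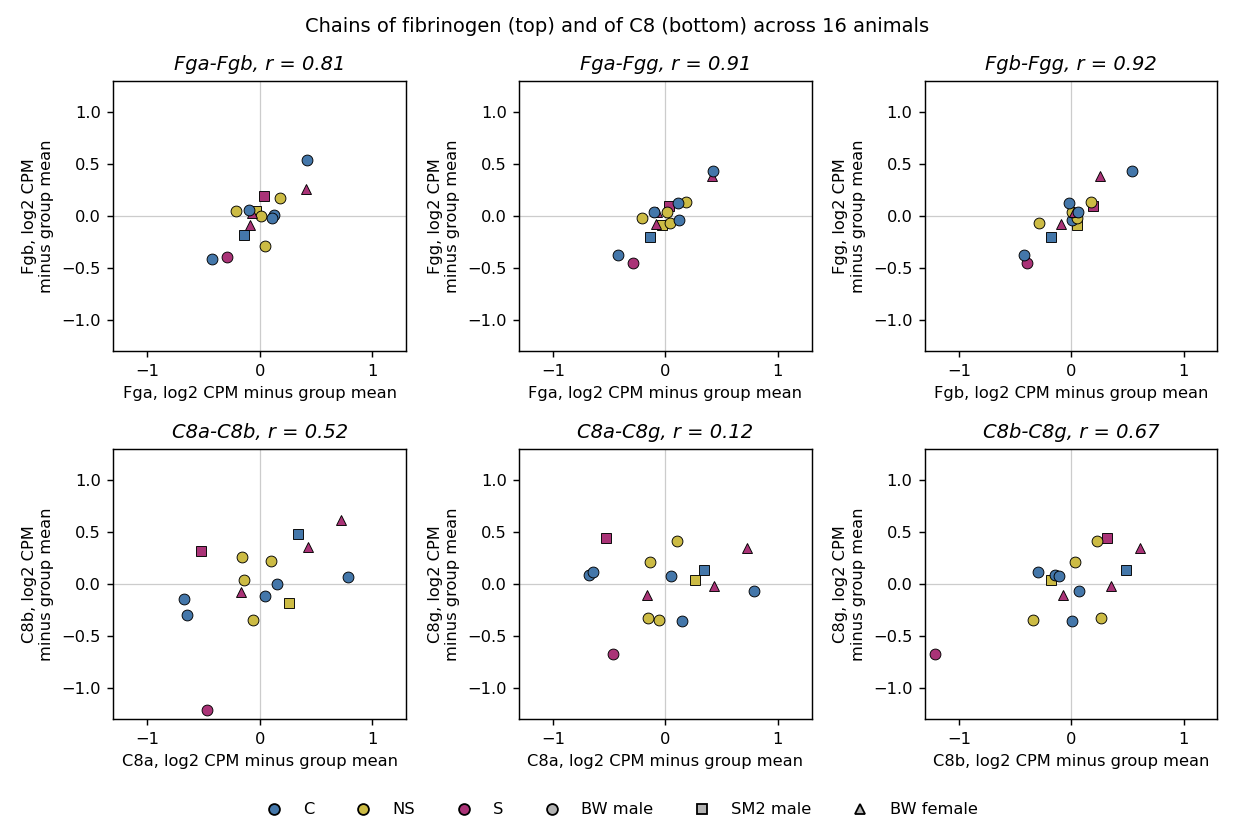
Log2 CPM minus the group mean of the 2 chains named on the axes, 1 point per animal (blue C, yellow NS, purple S; circle BW male, square SM2 male, triangle BW female), with Pearson's r in each title. The fibrinogen points lie along a line, while the C8 points scatter and 1 S male, animal 36016, lies far below the rest for C8b.

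Within groups the 38 genes had a median SD of 0.34 on the log2 CPM scale, and all tested genes had 0.46. At 5 or more log2 CPM, where counting error is small, 34 of the genes had a median SD of 0.33 and all genes at that level had 0.29. Serpind1 (0.15), F2 (0.18) and Plg (0.19) varied least between animals of a group. A2m (0.94), F11 (0.70), Cfp (0.58) and Mbl1 (0.57) varied most, and A2m and Cfp are low genes with means of 1.98 and 4.41 log2 CPM.

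The composite correlation Pc compares the correlations of a gene with every other gene between 2 groups; a value near 1 means that they are alike and a negative value that they are inverted. It was calculated for all 39 genes on the counts as deposited and is given without a test. For S vs C the median Pc was 0.27 (jackknife SE over animals 0.072), where all genes had 0.20. For NS vs C it was 0.12 (SE 0.095), where all genes had 0.10, and for S vs NS it was 0.18 (SE 0.057), where all genes had 0.17. In the same order, a Pc below -0.2 was seen in 0, 2 and 1 of the 39 genes, against 2.598%, 2.92% and 3.53% of all genes. These were F5 (-0.20) and C8b (-0.21) in NS vs C and C6 (-0.23) in S vs NS. On CPM by total count, which removes the differences in depth, the medians were 0.11, 0.17 and 0.21, where all genes had 0.10, 0.15 and 0.17. The counts below -0.2 were then 6, 1 and 3, against 6.05%, 5.74% and 7.32% of all genes, and C6 in S vs NS was at -0.38.

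Other genes of the same systems were taken from 5 further lists of pathway genes. Of 15 genes for tissue factor, platelet and endothelial coagulation tested, 12 C1q and complement receptor genes and 13 further complement regulators and components, 0 were called or passed in S vs C. Of 7 plasminogen activators and receptors, 2 were called higher in S, Serpine2 (log2 fold change 3.95) and Thbs1 (2.84). Both rest on animal 36016, which had 51.4 CPM of Serpine2 and 297.5 CPM of Thbs1 where the other animals had at most 2.77 and 18.9 CPM. Of 5 genes of the vitamin K cycle, which activates factors II, VII, IX and X, 0 passed, and Ggcx, the carboxylase, had the smallest p (log2 fold change 0.65, adjusted p = 0.120). Between the stocks Aifm2, a quinone reductase that can reduce vitamin K, was called higher in SM2 (2.55, adjusted p = 6.37e-06) at 53.5 to 78.4 CPM against 6.57 to 33.4 CPM. Nqo1, another gene of the vitamin K cycle, was called lower in SM2 (-1.88) at 3.655 to 142.5 CPM against 129.4 to 261.1 CPM. C7, the terminal pathway gene that lies close to C6, was called lower in SM2 (-1.75, adjusted p = 9.45e-06) at 7.43 to 16.1 CPM against 26.8 to 57.1 CPM, while C6 had a log2 fold change of 0.18. Tfpi, the inhibitor of tissue factor, and F8, the factor VIII gene, both made largely by endothelium, were also called lower in SM2 (-1.38 and -1.23). Of the 15 genes tested in their list, 4 were called lower there, and 1 was higher at the adjusted p without being called. Vwf, of the same list, lay at 13.48, 5.924 and 14.74 CPM in SM2 animals 10876, 10865 and 10880. In BW animals it lay at 4.064 to 9.947 CPM. Of 8 endothelial markers 6 were lower and 1 was higher in SM2 at the adjusted p. This is given beside the values above and was not tested as their source.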

How the data were processed

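Liver RNA from 16 animals was sequenced as paired-end reads from a strand-marking library kit. The authors aligned the reads of both stocks to the HU_Pman_2.1 assembly with STAR 2.7.2, counted uniquely mapped reads with featureCounts of the Subread package, and deposited raw counts per gene under mouse-style symbols, without normalization. The strand setting and the conversion to symbols are not given in the sources used here, so overlapping genes and close paralogs are uncertain.

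Groups, stock and sex came from the sample labels. Each animal was 1 replicate, since no pair of animals in a group agreed within counting noise (chi-square divided by its degrees of freedom at least 23.6). The genes and lists were chosen with earlier results of these data known. All 16 animals entered 1 fit of the counts in R 4.3.3, scaled by TMM and tested by the quasi-likelihood method of edgeR 4.0.16 (limma 3.58.1), and a gene was kept where any 1 animal reached 0.5 CPM. The 95% intervals are the estimate plus or minus 1.96 SE. Depth was 4640733 to 11349971 counts, and 1 count was worth 0.0872 to 0.188 CPM. The genes named in full were those called, the 4 with the smallest p in each comparison, and a fixed set of key genes. As alternatives the fit was repeated in DESeq2 1.42.0, with RLE scaling, with other filters and thresholds, with stock as a covariate, in BW animals or males alone, the 2 groups compared alone, on other scales, and with each animal left out. The tests were tried on simulated data first, for S vs C, S vs NS and NS vs C. There 14% to 16% of genes changed 1.5-fold passed the adjusted p, and 84% to 90% of genes changed 3-fold were called. A gene that did not pass may therefore still differ by about 1.5-fold. RefSeq symbols matched 36 of the 39 genes, and that annotation, of another assembly, was used only for which genes are neighbours.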

Additional observations from a re-analysis of the deposited data

Results flagged for a closer look

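In a group of 5 or 6 animals, the highest or lowest value of a gene was compared with its nearest neighbour by Dixon's ratio, for 20 named genes in 3 groups each. Of these 60 tests 7 were past the 95% limit, where chance gives about 1 in 20. Several of the genes were named for their small p-values between stocks or groups, so the count is a description and cannot be set against that share. In C the SM2 animal 10876 was the highest in all 4 flagged genes, with 348.3 CPM of F11 (nearest animal 233.7), 2240 CPM of Cfi (nearest 1302), 1240 CPM of Serpinf2 (nearest 893.6) and 4301 CPM of Plg (nearest 3565). In S the SM2 animal 10880 had 556.3 CPM of F11, and the nearest animal had 204.0. S animal 36016 was the lowest of its group for Cpb2, with 237.6 CPM where the nearest animal had 477.2, and for F2, with 1945 CPM where the nearest had 2548.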

How the results depend on the processing

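With stock as a covariate 10 genes were lower in S vs C, with Cfi, Masp2 and Proz added to the 7. No direction changed among the 27 named gene results under any alternative run. Without the fold limit the main fit had 7 genes lower in S vs C, 1 lower in HFD vs C and 4 higher in SM2 vs BW. The counts of called genes were as in the main fit under RLE size factors and both other filters in all 6 comparisons. DESeq2 gave 2 in SM2 vs BW and 2 in S females vs S males, BW animals alone gave 1 for S vs C and 6 for S females vs S males, and males alone gave 3 for S vs C and 1 for S vs NS. With 1 animal left out the called counts were 0 or 1 for S vs C, 1 or 2 for SM2 vs BW and 0 to 6 for S females vs S males (6 without animal 10880), and stayed at 0 in NS vs C, S vs NS and HFD vs C. Genes lower at the adjusted p then numbered 1 to 9 for S vs C and 0 to 1 for HFD vs C. In S vs C that count was 5 without a filter, against 3.79% of all genes. It was also 5 with the 2 groups compared alone, against 4.58% of all genes. Fga and Serpinc1 were lost in both. In HFD vs C the count was 0 without a filter, 0 in BW animals and 2 in males, and in S vs NS it was 4 with DESeq2, 1 in BW animals and 1 in males. With 1 animal left out the S vs C median log2 fold change lay between -0.30 and -0.16, that of S vs NS between -0.35 and -0.16, and that of NS vs C between -0.02 and 0.06; in males alone the first 2 were -0.40 and -0.40. The median Pc in S vs C was 0.105 on CPM by total count and 0.152 on TMM-normalized CPM; with 1 animal left out it ran from 0.213 to 0.294, from 0.0290 to 0.122 in NS vs C and from 0.131 to 0.188 in S vs NS. The C8a and C8g pair turned to -0.018 on CPM by total count. The C8b and C8g pair lost its adjusted p in 3 alternatives, with r of 0.29 without the 2 farthest animals, 0.66 in BW animals and 0.59 on CPM by total count, and the C8a and C8b pair gained it in BW animals, with 0.66. The cause of these moves was not tested. The planned pair of C1ra and C1s1 was not run. No paired analysis was possible because every library came from a different animal and the labels match no animals with each other. Since 1 count was worth up to 0.188 CPM, depth limits the values of genes at a few CPM, such as A2m and Serpina5.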
